A study of Mus musculus with 3 samples.

Results

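Metallothioneins and zinc transporters were followed as 8 genes, Mt1, Mt2, Mt3, Slc30a1, Slc30a3, Slc30a10, Slc39a10 and Slc39a14, chosen by gene symbol from a hippocampal RNA-seq table of 54532 genes. The table holds 1 library each of 3 genotypes, all from 10-month-old mice on a C57BL/6 background. WT mice carry no transgene, PS19 mice express mutant human tau from the mouse prion protein promoter, and PS19 Zbp1+/- mice (Zbp1+- in the labels) carry the same transgene with 1 Zbp1 allele lost. Zbp1 encodes a sensor of Z-form nucleic acid. The sources used here do not give the animals' sex or whether tissue was pooled. With 1 library per genotype no difference has a replicate check, no p-value is given, and every interval covers counting error only.

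Metallothioneins are small cysteine-rich proteins that bind zinc and copper. In the brain Mt1 and Mt2 are known mainly from astrocytes and from vessel-associated and ependymal cells, and are induced by metals, glucocorticoids and interleukin 6 signalling, while Mt3 is the brain-enriched form. Slc30 proteins move zinc out of the cytosol, into vesicles or out of the cell, and Slc39 proteins move it into the cytosol. The transcription factor Mtf1 senses free zinc and acts on metal response elements, so that Mt1, Mt2 and Slc30a1 are induced by zinc and Slc39a10 is repressed.

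The promoters of Mt1 and Mt2 are shown because both genes are classical Mtf1 targets, and that of Slc30a10 because it held several copies of the element. The 250 bases upstream of the RefSeq start site (GRCm38.p6) are printed on the gene's own strand, with each match to the metal response element core in capitals. The core was searched as TGCACNC or TGCGCNC on both strands. RefSeq promoters were found for 7 of the 8 genes.
Mt1, chr8:94178839-94179088, plus strand: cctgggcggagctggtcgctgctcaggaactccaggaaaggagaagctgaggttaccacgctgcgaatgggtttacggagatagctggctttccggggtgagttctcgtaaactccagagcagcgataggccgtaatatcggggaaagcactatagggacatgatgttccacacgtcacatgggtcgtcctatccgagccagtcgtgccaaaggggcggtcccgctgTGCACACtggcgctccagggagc
Mt2, chr8:94172368-94172617, plus strand: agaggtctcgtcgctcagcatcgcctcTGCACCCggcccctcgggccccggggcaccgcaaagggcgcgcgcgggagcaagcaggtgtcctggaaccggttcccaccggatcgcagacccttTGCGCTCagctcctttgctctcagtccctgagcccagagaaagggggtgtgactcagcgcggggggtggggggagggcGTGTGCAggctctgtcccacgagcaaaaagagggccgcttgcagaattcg
Slc30a10, chr1:185454598-185454847, plus strand: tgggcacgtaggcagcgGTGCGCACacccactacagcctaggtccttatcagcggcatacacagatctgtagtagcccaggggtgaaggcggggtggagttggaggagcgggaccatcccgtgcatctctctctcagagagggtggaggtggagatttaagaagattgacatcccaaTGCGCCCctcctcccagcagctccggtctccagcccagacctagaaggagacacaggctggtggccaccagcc
The Mt1 window held 1 match, 23 to 17 bases before the start, and the Mt2 window held 3. The Slc30a10 window also held 3, of which 2 overlap on opposite strands. Of all 32851 RefSeq promoter windows of this length, 21.4% held at least 1 match and 1.26% held at least 3. The Slc30a1 window held 1 match, and the Mt3 window and both Slc39a10 windows held 0. Slc30a3 has 2 windows, of which the upstream one held 1 match and the other 0. For the Mt2 window and the upstream windows of Slc30a3 and Slc39a10, 0 GENCODE transcripts of the gene held the bases just after the RefSeq start. The Mt2 window ends at 94172617, and the annotated Mt2 gene starts at 94172664. These 3 windows therefore need not lie directly before an annotated transcript. For Mt1, 1 of its 3 GENCODE transcripts held the bases just after the RefSeq start, and the annotated gene starts at 94179082, inside the window. The printed Mt1 bases thus need not lie directly before its other transcripts. In the 50 bases after the start Mt1 held 2 further matches, and at least 2 were found in 0.53% of such windows. Mt2, Mt3 and Slc30a1 held 1 each there, and 5.72% of such windows held at least 1. These bases lie beyond the printed ones. The upstream count of 1 for Mt1 thus leaves out matches close to its start, and upstream counts alone do not rank the genes. A match describes these letters and is not evidence that Mtf1 binds there.

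**Figure D1:**
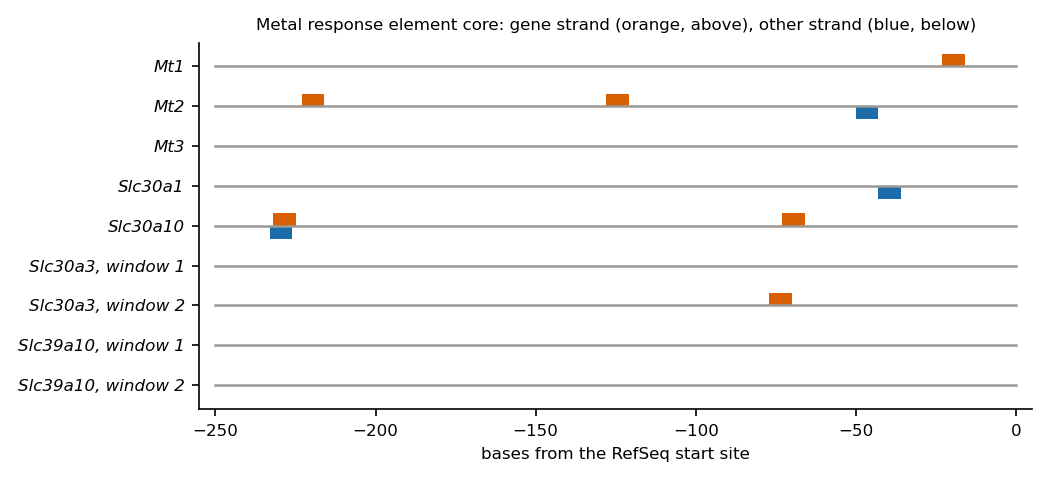
Matches to the metal response element core in the 250 bases upstream of each RefSeq start site, drawn as distance from the start (x axis, bases) for the 9 windows of 7 genes. Mt2 and Slc30a10 each hold 3 matches, the other windows 1 or 0, and orange and blue bars mark the gene's own and the other strand.

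The libraries were of like depth, with 16400328 to 17109734 reads recovered from the FPKM values (fragments normalised to gene length and library size). The targeted gene Zbp1 had 5 reads in WT, against 91 in PS19 and 0 in PS19 Zbp1+/-, where a count of 0 allows an FPKM of up to 0.0537. The read ratio to PS19 was at most 0.0452, although the label gives 1 intact allele. The PS19 Zbp1+/- library stood apart in several ways. It had fewer genes with reads, 21408 compared with 24741 (WT) and 25397 (PS19). It held 0 Xist reads and 268 to 711 reads of each of 4 Y-linked genes, whereas WT held 11062 Xist reads, PS19 held 13350, and both held 0 Y-linked reads. By these reads the PS19 Zbp1+/- library came from male tissue and the WT and PS19 libraries from female tissue. The 7 choroid plexus markers of PS19 Zbp1+/- summed to an FPKM of 25.5, against 3400 in WT and 2161 in PS19, although none was at 0 reads. Its 5 blood markers summed to 3.44, against 19.0 and 15.8, and its ependymal markers were low as well. Every comparison with this library is therefore also a comparison across these differences, and genotype cannot be told apart from them. Hippocampal identity was checked on 7 excitatory and 6 dentate granule neuron markers, and none was at 0 reads in any library.

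Mt1 (ENSMUSG00000031765; chromosome 8, 94179082 to 94180327, GRCm38, plus strand), an inducible metallothionein, had an FPKM of 214 in WT, against 349 in PS19 and 130 in PS19 Zbp1+/-. PS19 was thus the highest library and PS19 Zbp1+/- the lowest. The ratio of reads per library size was 1.63 for PS19 over WT, with a 95% interval of 1.58 to 1.70 (Clopper-Pearson, exact, as for all such ranges in brackets). PS19 Zbp1+/- stood at 0.372 of PS19 (0.355 to 0.389) and at 0.607 of WT (0.578 to 0.637), so its Mt1 level lay below WT as well as below PS19. On the scale of log2(FPKM + 1) the Mt1 differences were 0.71 for PS19 minus WT, -1.42 for PS19 Zbp1+/- minus PS19 and -0.72 for PS19 Zbp1+/- minus WT. That scale was applied to protein-coding genes whose FPKM reached 1 in at least 1 of the libraries compared, and a gene was called higher or lower at a difference of 1, that is 2-fold. Of those genes, 4.52% were as far above WT in PS19 as Mt1, and 2.04% were as far below PS19 in PS19 Zbp1+/-.

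Mt3 (chromosome 8, 94152607 to 94154146), the brain-enriched metallothionein, had an FPKM of 208 in WT, against 200 in PS19 and 135 in PS19 Zbp1+/-. WT and PS19 did not differ beyond counting error, with a read ratio of 0.962 (0.919 to 1.01), and PS19 Zbp1+/- was the low library. Its read ratio was 0.675 against PS19 (0.641 to 0.712) and 0.650 against WT (0.617 to 0.685). Expressing the values as TPM, which gives every library an equal sum, turned the small Mt3 difference between PS19 and WT from -0.06 to 0.07. Mt1 and Mt3 therefore had unlike ratios for PS19 over WT, with intervals that did not overlap, while both were below WT in PS19 Zbp1+/-, with Mt1 at 0.607 and Mt3 at 0.650.

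Mt2 (chromosome 8, 94172664 to 94173568), the close relative of Mt1 that lies next to it, was far less covered. It had 28 reads in WT, against 75 in PS19 and 41 in PS19 Zbp1+/-, at FPKM values of 2.76, 7.38 and 4.41. PS19 was the highest library, at 2.67 times WT (1.71 to 4.29), and the difference of 1.16 made Mt2 the single gene of the 8 called higher in PS19. PS19 Zbp1+/- stood at 0.597 of PS19 (0.398 to 0.885) and at 1.60 times WT, and whether it differed from WT was not detectable at this depth (0.964 to 2.68). In GENCODE release M21, 432 of the 588 exon bases of Mt2, or 73.5%, are also exon of the antisense gene Gm45774, whose reads numbered 17, 13 and 6 in the same order of libraries. How reads over both genes were assigned is not given in the sources used here, so the level of Mt2 is uncertain. Mt4, the form of stratified epithelia, had 0 reads in each of the 3 libraries, which allows an FPKM of at most 0.436 to 0.476.

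The summed FPKM of Mt1, Mt2 and Mt3 was 424 in WT, against 556 in PS19 and 269 in PS19 Zbp1+/-. Mt1 made up 50.4% of it in WT, against 62.8% in PS19 and 48.2% in PS19 Zbp1+/-, and Mt3 made up 48.9%, 35.9% and 50.1% in the same order. Mt1 and Mt3 were thus about equal in WT and in PS19 Zbp1+/-, at FPKM ratios of 1.03 and 0.963, and Mt1 was ahead in PS19 at 1.75. These levels use the table's gene lengths, which count every annotated exon base. For Mt1 that is 1246 bases, against 549 in its transcript Mt1-201. Per kilobase of the first annotated transcript the ratio of Mt1 to Mt3 was 1.18, 2.0 and 1.10.

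**Figure D2:**
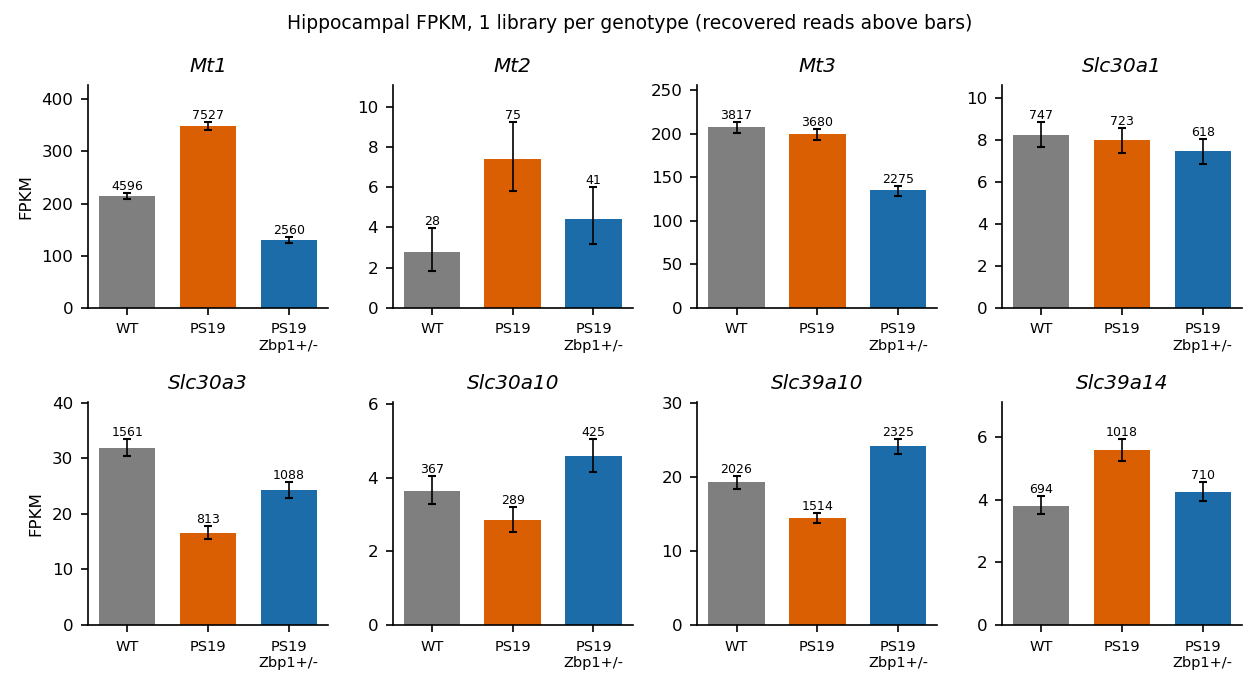
FPKM (y axis, from 0) of the 8 genes in the WT, PS19 and PS19 Zbp1+/- libraries, with exact 95% Poisson intervals as error bars and the recovered reads printed above each bar. Mt1, Mt2 and Slc39a14 were highest in PS19, and Slc30a3, Slc30a10 and Slc39a10 were lowest there.

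Of the 3 zinc exporters of the set, Slc30a3 (ZnT3; chromosome 5, 31086106 to 31108237, minus strand) loads zinc into glutamatergic synaptic vesicles and is abundant in mossy fibre terminals. Its FPKM was 31.9 in WT, against 16.6 in PS19 and 24.3 in PS19 Zbp1+/-. PS19 was the low library, at 0.520 of WT (0.477 to 0.566), and PS19 Zbp1+/- lay between the others, at 1.46 times PS19 (1.33 to 1.60) and 0.760 of WT (0.703 to 0.821). The difference of -0.90 between PS19 and WT missed the 2-fold call, but 0.417% of the genes tested were as far below WT as Slc30a3. The 7 excitatory neuron markers summed to an FPKM of 1500 in WT, against 1181 in PS19 and 1933 in PS19 Zbp1+/-. Among them Slc17a7, the glutamate transporter of the same vesicles, had FPKM values of 206, 172 and 371. Slc17a7 was above WT in PS19 Zbp1+/- and Slc30a3 below it. The 6 dentate granule neuron markers summed to 101, 68.9 and 80.3, but they did not move as 1 group. In PS19 Zbp1+/- 3 of the 6 were above PS19 (C1ql2, Calb1 and Neurod1) and 3 below it (Prox1, Dsp and Lct), with a median difference of -0.31. Against WT 5 of the 6 were lower in PS19 Zbp1+/- and 1, Calb1, was higher, with a median of -0.55. Whether the level of these neurons plays a part in the Slc30a3 values was not tested, and in bulk tissue fewer cells of a type and less RNA per cell cannot be told apart.

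Slc30a1 (ZnT1; chromosome 1, 191906767 to 191913247), the plasma membrane exporter induced by zinc through Mtf1, was the most even of the 8 genes. Its FPKM was 8.26 in WT, against 7.98 in PS19 and 7.45 in PS19 Zbp1+/-, and each of the 3 read ratios had an interval that held 1. PS19 stood at 0.966 of WT (0.871 to 1.07), and PS19 Zbp1+/- at 0.934 of PS19 (0.837 to 1.04). The difference between PS19 and WT was -0.04, and 0.08 under TPM. For PS19 Zbp1+/- it was -0.09 against PS19 and -0.13 against WT. These became -0.37 and -0.30 under TPM, and -0.25 and -0.27 when scaled by total reads, each outside its counting interval. The median of all genes was -0.25 and -0.15 under TPM, and -0.12 and -0.13 under total reads. The evenness of Slc30a1 in PS19 Zbp1+/- thus depends on the scaling. Mt1 and Slc30a1, both Mtf1 targets, thus had intervals for PS19 over WT that did not overlap.

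Slc30a10 (chromosome 1, 185454848 to 185468762), which exports mainly manganese, had an FPKM of 3.64 in WT, against 2.86 in PS19 and 4.6 in PS19 Zbp1+/-. PS19 was lowest and PS19 Zbp1+/- highest. The read ratios were 0.786 for PS19 over WT (0.671 to 0.919), 1.61 for PS19 Zbp1+/- over PS19 (1.38 to 1.87) and 1.26 for PS19 Zbp1+/- over WT (1.10 to 1.46).

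Of the importers, Slc39a10 (Zip10; chromosome 1, 46807544 to 46892852, minus strand), which Mtf1 represses when zinc is high, kept the same order of libraries as Slc30a10. Its FPKM was 19.3 in WT, against 14.4 in PS19 and 24.1 in PS19 Zbp1+/-. The read ratios were 0.746 for PS19 over WT (0.697 to 0.798), 1.68 for PS19 Zbp1+/- over PS19 (1.57 to 1.79) and 1.25 for PS19 Zbp1+/- over WT (1.18 to 1.33). Slc39a14 (Zip14; chromosome 14, 70303469 to 70351425, minus strand), a carrier of zinc, iron and manganese that is induced in the acute phase response, was highest in PS19 and lowest in WT. Its FPKM was 3.81 in WT, against 5.58 in PS19 and 4.25 in PS19 Zbp1+/-. PS19 was 1.46 times WT (1.33 to 1.61), and PS19 Zbp1+/- was 0.762 of PS19 (0.691 to 0.839). PS19 Zbp1+/- and WT were close, with a difference of 0.13, and -0.00 under TPM.

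**Figure D3:**
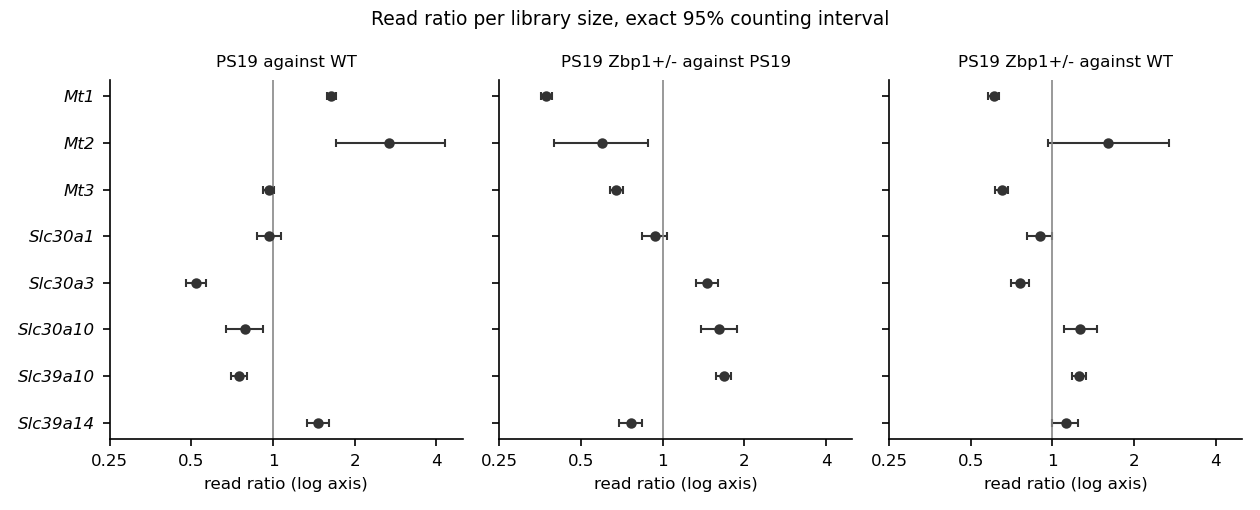
Ratio of reads per library size (x axis, log scale) of the 8 genes in the 3 comparisons, with exact 95% counting intervals as bars and a line at 1. For PS19 over WT the intervals of Mt1, Mt2 and Slc39a14 lie above 1, those of Slc30a3, Slc30a10 and Slc39a10 below it, and those of Mt3 and Slc30a1 across it.

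All 8 genes had an FPKM of at least 1 in every library and entered each comparison. Between PS19 and WT, 1 of 8 was called higher (Mt2) against 2.2% of the 12703 genes tested, and 0 of 8 were called lower against 0.291%. Between PS19 Zbp1+/- and PS19, 0 were called higher against 2% and 1 was called lower (Mt1) against 5.16% of 12772 genes. Between PS19 Zbp1+/- and WT, 0 were called higher and 0 lower against 1.07% and 2.28% of 12436 genes. At a threshold of 1.5-fold the calls for PS19 against WT were 2 higher (Mt1 and Mt2), against 6.34% of genes, and 1 lower (Slc30a3), against 2.71%. At that threshold PS19 Zbp1+/- against PS19 gave 1 higher (Slc39a10), against 9.37%, and 2 lower (Mt1 and Mt2), against 12.1%. PS19 Zbp1+/- against WT gave 0 higher, against 6.71%, and 2 lower (Mt1 and Mt3), against 7.12%. By any amount, 3 of the 8 were above and 5 below WT in PS19, against 46.3% and 53.7% of genes. In PS19 Zbp1+/- 3 were above and 5 below PS19, against 53.7% and 46.3%, and 4 were above and 4 below WT, against 51% and 49%. With 8 genes these counts are too small to stand apart from such shares, and the median difference was -0.05, -0.21 and -0.00 in the 3 comparisons, against -0.03, 0.04 and 0.01 over all genes tested. The PS19 library enters both of the first comparisons, so their differences are not independent of each other.

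The other genes of the zinc families were given from a list of 28 (4 metallothioneins, 10 Slc30a and 14 Slc39a genes), of which 20 are outside the 8 and 15 of those had enough expression to enter each comparison. Between PS19 and WT 0 of the 15 were called in either direction, and their differences ran from -0.19 to 0.46. The largest were those of the importers Slc39a1 (0.46; FPKM 15.2, 21.1 and 19.9 in WT, PS19 and PS19 Zbp1+/-) and Slc39a4 (0.39). Among the exporters Slc30a7 and Slc30a9 were furthest from 0, at 0.17 and -0.16. The 8 tested Slc30a genes had a median difference of -0.08 and the 12 tested Slc39a genes one of 0.18, beside -0.03 over all genes tested. The last of these medians moved by 0.13 under TPM.

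Between PS19 Zbp1+/- and PS19 the differences of the 15 ran from -1.19 to 0.49, with 6 above and 9 below PS19, and 1 was called. It was the importer Slc39a4, whose loss in the gut causes zinc deficiency. It had 83 reads in WT, against 126 in PS19 and 23 in PS19 Zbp1+/-, which stood at 0.199 of PS19 (0.122 to 0.313) and 0.302 of WT (0.182 to 0.484). Slc39a12, an importer known from astrocytes, had an FPKM of 17.9, 22.1 and 12.4 in the same order, and PS19 Zbp1+/- was at 0.560 of PS19 (0.507 to 0.620). Among the exporters of the 15 Slc30a5 had the largest difference, at 0.763 of PS19 (0.683 to 0.852), followed by Slc30a4 at 0.895 (0.810 to 0.988). The highest of the 15 were the importers Slc39a11, at 1.47 times PS19 (1.28 to 1.69), and Slc39a3, at 1.38 times (1.29 to 1.48). Between PS19 Zbp1+/- and WT 0 of the 15 were called, and the differences ran from -0.80 for Slc39a4 to 0.37 for Slc39a1. The median over all 23 tested genes of the 3 families was -0.00 for PS19 minus WT, -0.08 for PS19 Zbp1+/- minus PS19 and -0.03 for PS19 Zbp1+/- minus WT. Across the families Mt1 and Mt3 ranked first or second in FPKM in each library, and Slc30a3 had rank 3 in WT and rank 6 in PS19.

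**Figure D4:**
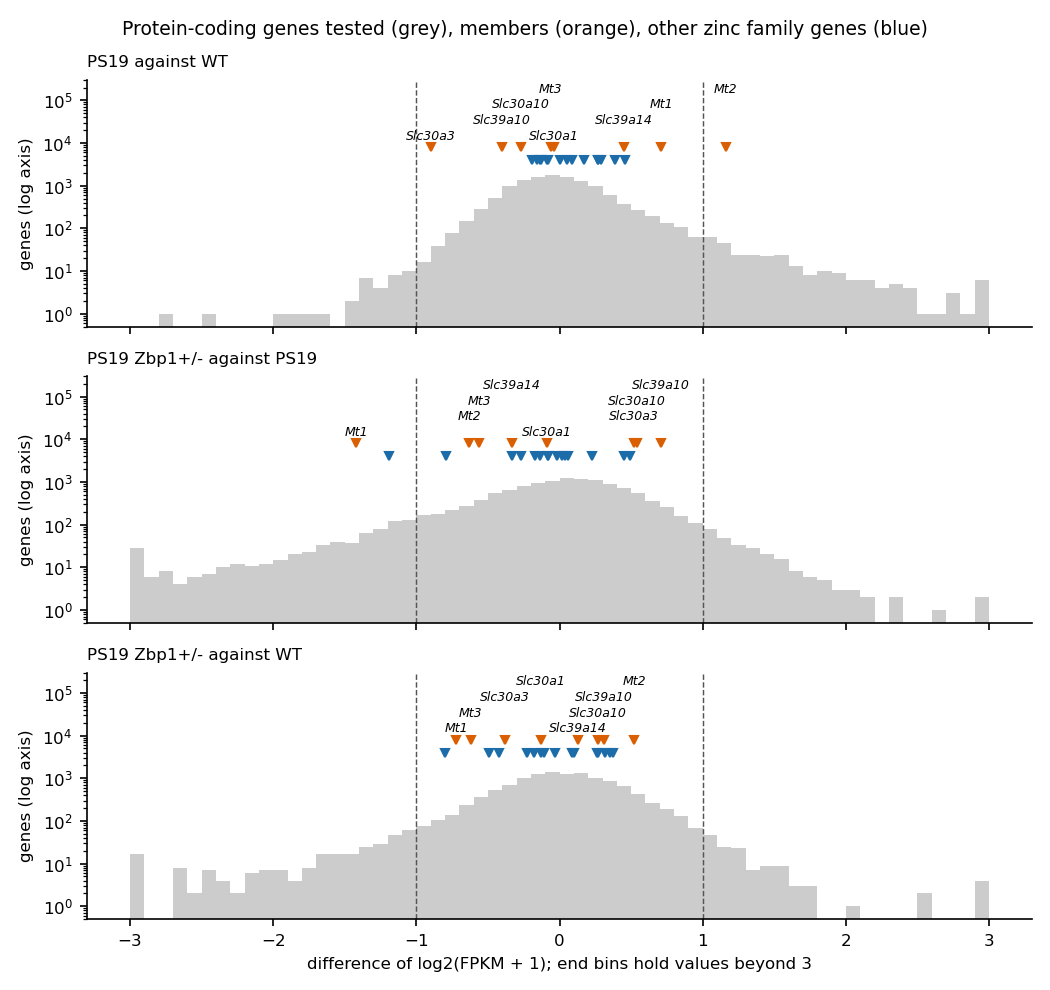
Number of protein-coding genes (y axis, log scale) by difference of log2(FPKM + 1) (x axis) in the 3 comparisons, with the 8 genes as orange triangles, the other tested zinc family genes as blue triangles and dashed lines at the 2-fold call. Mt2 lies beyond the line at 1.16 in the upper panel, and Mt1 at -1.42 and Slc39a4 at -1.19 in the middle one.

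The sensor Mtf1 itself differed little, at an FPKM of 3.47 in WT, against 4.0 in PS19 and 4.08 in PS19 Zbp1+/-. PS19 stood at 1.15 times WT (1.03 to 1.30), and PS19 Zbp1+/- at 1.02 times PS19 (0.908 to 1.14) and 1.18 times WT (1.04 to 1.33). Both intervals against WT lay above 1. Gclc, a glutathione synthesis enzyme also known as an Mtf1 target, stood at 1.06 times WT in PS19 (0.971 to 1.16), and in PS19 Zbp1+/- at 0.828 of PS19 (0.754 to 0.909). These are RNA levels, and neither zinc nor Mtf1 activity was measured. The part of Mtf1 in the values of Mt1 and Slc30a1 was not tested.

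Lists for the other known inducers of Mt1 and Mt2 differed between libraries too. Of 10 genes of the interleukin 6 and Stat3 response, 4 were called higher in PS19 than in WT and 0 lower, with a median difference of 0.72, against 2.2% and 0.291% of all genes tested. These were Serpina3n (2.79), an acute phase protease inhibitor, Osmr (1.64), the oncostatin M receptor, Socs3 (1.09), a feedback inhibitor of the pathway, and Lcn2 (1.01), an iron-siderophore binding protein. In PS19 Zbp1+/- against PS19, 3 of the 10 were called lower (Serpina3n, Osmr and Lcn2), 0 higher, and the median was -0.96, against 5.16% of genes called lower. Against WT 1 of 7 tested was called lower in PS19 Zbp1+/- (Cebpb, a transcription factor, at -1.17) and 0 higher, with a median of -0.19, beside 2.28% of genes called lower. Of 8 glucocorticoid-induced genes, 1 was called higher in PS19 than in WT (Plin4, a lipid droplet protein, at 2.09) and 0 lower, with a median of 0.33 (2.2% of genes were called higher). In PS19 Zbp1+/- 5 of the 8 were called lower than in PS19 and 4 lower than in WT, with medians of -1.38 and -0.94, beside 5.16% and 2.28% of genes. Those 4 were Sgk1, a kinase, at -1.73 against WT, Tsc22d3, a mediator of glucocorticoid action, at -1.56, Pdk4, a pyruvate dehydrogenase kinase, at -1.43, and Plin4 at -1.05. The fifth called lower than PS19 was Sult1a1, a sulfotransferase, at -1.25. Sgk1 (FPKM 45.0, 56.7 and 12.9) was highest in PS19 and lowest in PS19 Zbp1+/-, as was Mt1, and so by a smaller margin was Fkbp5 (7.84, 8.18 and 7.17). The list's remaining genes, Per1 (19.0, 24.3 and 21.5) and Zbtb16 (9.41, 16.8 and 13.3), were lowest in WT. The part of these inducers in the Mt1 values was not tested.

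Markers of the cell types that express these genes also moved with the libraries. All 9 astrocyte markers were above WT in PS19 and below PS19 in PS19 Zbp1+/-, and their summed FPKM was 448 in WT, against 1314 in PS19 and 453 in PS19 Zbp1+/-. The astrocyte sum in PS19 Zbp1+/- was 1.01 times WT, but Gfap and Slc1a2 make up much of it and 5 of the 9 markers were below WT. Those were S100b (a difference of -0.56), Gjb6 (-0.47), Gja1 (-0.45), Aqp4 (-0.37) and Sox9 (-0.09). The other 4 were above WT, namely Slc1a2 (0.22), Gfap (0.19), Slc1a3 (0.13) and Aldh1l1 (0.12). The median of the 9 was -0.09, beside -0.72 for Mt1 and -0.62 for Mt3. The 4 ependymal markers summed to 28.4, 24.0 and 5.57. The 6 endothelial markers summed to 51.9, 53.9 and 61.5, and the 7 meningeal and mural markers to 42.6, 42.1 and 48.9. In PS19 Zbp1+/- 5 of the 6 and 5 of the 7 were nonetheless below PS19, with median differences of -0.23 and -0.35, while Cldn5 (0.96) and Dcn (1.93) were above it. The choroid plexus sum was 0.636 of WT in PS19 and 0.00751 of WT in PS19 Zbp1+/-. Microglial markers (7 genes) summed to 125, 397 and 130, and oligodendrocyte markers (6 genes) to 753, 1358 and 477. All 6 oligodendrocyte markers were above WT in PS19, and in PS19 Zbp1+/- all 6 were below PS19 and below WT. Their median differences were 0.81 for PS19 minus WT, -1.40 for PS19 Zbp1+/- minus PS19 and -0.58 for PS19 Zbp1+/- minus WT. The microglial medians were 1.42, -1.05 and -0.01 in the same order. No marker of these lists was at 0 reads in any library. Their part in the values of Mt1, Mt3, Slc39a12 and Slc39a14 was not tested.

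**Figure D5:**
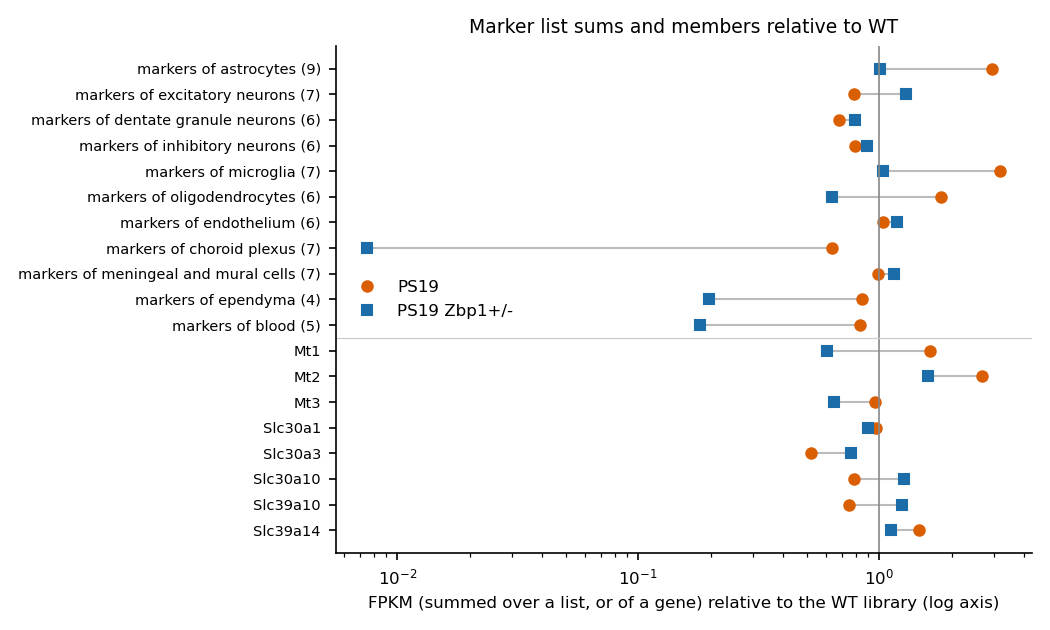
FPKM relative to the WT library (x axis, log scale) of the summed cell type marker lists (number of genes in brackets) and of the 8 genes, with PS19 as circles and PS19 Zbp1+/- as squares. The choroid plexus sum in PS19 Zbp1+/- lies at 0.00751 of WT, and the astrocyte sum at 2.93 in PS19 and 1.01 in PS19 Zbp1+/-.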

How the data were processed

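The authors deposited 1 table of FPKM values for 3 hippocampal libraries, WT, PS19 and PS19 Zbp1+/-, the unit being taken from the table's name and values. Per the labels' protocols, TRIzol served for RNA extraction and an NEB Next Ultra RNA kit for library preparation. Trim Galore 0.6.5, STAR 2.5.3a, featureCounts 2.0.4 and build mm39 are named in the submitters' processing notes, but 98.3% of the table's gene IDs found in GENCODE release M21 (GRCm38) have the same start and end there, so positions are given on GRCm38. Strand handling and the making of the FPKM values are not given in the sources used here. Whole reads were recovered from FPKM times gene length, since 100% of values in each library came out whole (tolerance 0.01). They imply library sizes of 17253479, 17287957 and 15826984 reads, so the values already carry a size-factor scaling (1.03, 1.03 and 0.945).

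Differences of log2(FPKM + 1), which understate changes of low genes, were taken over protein-coding genes reaching an FPKM of 1 in at least 1 library of a pair and called at 2-fold. Read ratios were taken per implied library size with exact intervals, and limits for a count of 0 are those of 3 reads. Since no molecular identifiers are given, reads need not be separate molecules. The members, gene lists and named-gene rule were chosen with earlier results of these data known. Named were the 8 genes, Mt4, Mtf1, Zbp1, called zinc family genes or else the 2 with the largest difference per family, called genes of other lists, and the 3 genes nearest in pattern to Mt1, Mt3, Slc30a3 and Slc39a14, of which 1 is not reported here; other genes were named after their values were seen. Marker lists for 11 cell types were read as sums. Copies were sought with BLAST 2.17.0 at 90% identity or more. Promoters are RefSeq's (GRCm38.p6). On simulated data for each comparison, reads were recovered for 100% of 54532 genes, all 200 genes given a log2 change of 2 were called, and 4, 5 and 4 unchanged genes were called of 12282, 12215 and 11997. That change lies well past the 2-fold call, and the simulation held counting error only. It therefore checks the code and says nothing about differences between animals or dissections. The scipy version was 1.17.1, run under Python 3.11.15 with pandas 2.3.3, numpy 2.4.6 and, for plots, matplotlib 3.10.9.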

Additional observations from a re-analysis of the deposited data

How the results depend on the processing

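Pseudocounts of 0.1 and 0.5, no filter, a mean FPKM of at least 5, scaling by the median ratio, TPM, total reads, all biotypes, thresholds of 1.5-fold and 4-fold and the mean in place of the median were tried. TPM moved the median of all genes by 0.13, -0.29 and -0.16 for PS19 minus WT, PS19 Zbp1+/- minus PS19 and PS19 Zbp1+/- minus WT, and total reads by 0.03, -0.16 and -0.14. Of 185 values of the 8 genes under the alternatives, 157 stayed within the counting interval of the difference and 28 did not, and these 28 all came from TPM or total reads. Of the 185, 3 changed sign (Mt3 and Slc30a1 for PS19 minus WT and Slc39a14 for PS19 Zbp1+/- minus WT, all under TPM), each from a difference that was not called. The zinc family median was -0.00, -0.08 and -0.03 in the 3 comparisons, and 0.15, -0.36 and -0.16 under TPM. Under total reads it was -0.23 for PS19 Zbp1+/- minus PS19 and -0.15 for PS19 Zbp1+/- minus WT, and with a mean FPKM of at least 5 the latter was -0.16. At 1.5-fold the numbers of the 8 genes called higher were 2 and 1, and lower 1, 2 and 2, where the 2-fold calls were 1 and 0, and 0, 1 and 0. At 4-fold 0 were called. No paired analysis was possible because each genotype has 1 library, and for the same reason no library could be left out. Counting error limits Mt2, Slc39a4 and Slc39a7 most, with 23 to 126 reads per library.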

Other observations

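Metallothioneins also bind copper. Of 10 copper handling genes 0 were called in PS19 against WT in either direction, with a median difference of -0.05. Over all genes tested 2.2% were called higher and 0.291% lower. In PS19 Zbp1+/- against PS19 0 of 9 were called, beside 2% of genes called higher and 5.16% lower. Of the 9, 7 were lower by any amount, with a median of -0.31 (46.3% of all genes tested were lower). Against WT 1 of 8 was called lower and 0 higher, beside 2.28% and 1.07% of genes. It was Slc31a1, the main copper importer of cells. Slc31a1 had 745 reads in WT, against 693 in PS19 and 292 in PS19 Zbp1+/-, and a ratio to WT of 0.427 (0.372 to 0.490). Cp, the copper-carrying ferroxidase ceruloplasmin, had 272, 418 and 133 reads, and Sod1, the copper-zinc superoxide dismutase, had 2822, 2166 and 2040. Of 6 genes for manganese and divalent metal transport 0 were called in any comparison, with medians of 0.03, -0.00 and -0.01. With so few genes the counts of both lists do not stand apart from the shares of all genes given above.

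The genes nearest to 4 of the 8 in pattern were sought among 12274 protein-coding genes with a mean FPKM of at least 1, by Euclidean distance of log2(FPKM + 1) centred over the 3 libraries. With 3 libraries many genes lie near by: 57 lay within 0.2 of Mt1, 651 of Mt3, 55 of Slc30a3 and 903 of Slc39a14. The nearest to Mt1 were Aspa (distance 0.0142), mt-Atp8 (0.0211) and Bfsp2 (0.0347). Those nearest to Mt3 were Fam76b (0.00579), Eno3 (0.00663) and Chuk (0.0152). Near to Slc30a3 lay Fxyd7 (0.034) and Pter (0.0642). Those nearest to Slc39a14 were Ick (0.00228), Abtb2 (0.0136) and Dusp16 (0.0146).

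Slc39a8, a close relative of Slc39a14 that also carries manganese, stayed below an FPKM of 1 and entered no comparison. Its reads numbered 48 (WT), 77 (PS19) and 25 (PS19 Zbp1+/-). Its exon bases are not shared with another gene, whereas 80.7% of those of Slc39a7, an importer that releases zinc from the endoplasmic reticulum, are.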
